A study of Mus musculus with 8 samples.

Results

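Clusters of shared H3K27ac regions in Oli-neu cells were chosen by position: the peaks of a proliferating and a differentiating library were merged, merged regions holding a peak of each list were called shared, and shared regions with gaps of at most 12.5 kb were joined. Joined stretches with at least 3 shared regions were the members. Of 48416 merged regions 8413 were shared, and 504 of these (5.99%, 95% exact interval 5.49 to 6.52%) lay in 152 clusters, beside 613 pairs and 6683 shared regions that stood alone. The last gap joined was 12404 bp and the first gap left unjoined was 12511 bp. The peak lists chose the members, so the number of peaks in a cluster and its length are a description with no test.

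Oli-neu is a mouse line of embryonic oligodendrocyte precursors, given as C57BL/6 and immortalized with the t-neu oncogene, an ErbB receptor. The proliferating library came from cells in medium with bFGF and Pdgf-BB, and the differentiating library from cells kept without growth factors for 1 day with 1 µM of the ErbB inhibitor PD174265, while the culture methods of the study name a longer differentiation. Both were precipitated with the same H3K27ac antibody, and each state had 1 library, so no difference between the states has a replicate check. Accessibility libraries of cells with a control or a Padi2 siRNA were not analysed here. The intervals given cover counting error only, and the read depth behind a peak is not in the lists.

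Acetylation of histone H3 at lysine 27 marks promoters and enhancers in use. Genes that define a cell type often lie near several such elements in a row, and long stitched stretches are studied as enhancer clusters. In the oligodendrocyte lineage the transcription factor Sox10 is such a gene, and its upstream region is known for enhancers. Dense rows of ordinary promoters in gene-rich DNA also give closely spaced peaks, so a stitched cluster is a statement about spacing and not by itself about an enhancer.

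The sequences shown are the central bases of the strongest region in the clusters with the most shared regions, outside annotated untranslated regions, and of the pair of regions next to Sox10 upstream of its start. All are from GRCm38, plus strand, 5′ to 3′. For Padi2 the stretch was chr4:140906434-140906656, for Tomm7 chr5:23843949-23844073, for Pcdh17 chr14:84470551-84470850, for the last region of the Sox10 cluster chr15:79175640-79175939, and for the first region of the neighbouring Pick1 cluster chr15:79193389-79193688. The last pair was chosen after values were seen. Capitals mark matches on either strand to the GC box GGGCGG and the E-box CAGCTG, and the SOX forms ACAAAG and ACAATG, the AP-1 form TGANTCA, the ETS form CCGGAAG and the CRE form TGACGTCA were searched as well.
Padi2 first region: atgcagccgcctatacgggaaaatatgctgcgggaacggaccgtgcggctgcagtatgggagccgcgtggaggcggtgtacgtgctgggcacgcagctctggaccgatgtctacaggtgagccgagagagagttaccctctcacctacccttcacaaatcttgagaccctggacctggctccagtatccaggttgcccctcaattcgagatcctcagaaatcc
Tomm7 promoter region: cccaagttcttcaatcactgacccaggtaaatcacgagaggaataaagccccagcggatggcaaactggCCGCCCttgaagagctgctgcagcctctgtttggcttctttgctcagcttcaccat
Pcdh17 intron region: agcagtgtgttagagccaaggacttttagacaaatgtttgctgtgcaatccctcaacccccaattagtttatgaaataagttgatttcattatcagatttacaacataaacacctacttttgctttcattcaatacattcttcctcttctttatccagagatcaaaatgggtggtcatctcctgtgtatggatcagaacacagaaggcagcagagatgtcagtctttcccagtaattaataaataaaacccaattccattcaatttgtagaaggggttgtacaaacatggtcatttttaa
Sox10 upstream region: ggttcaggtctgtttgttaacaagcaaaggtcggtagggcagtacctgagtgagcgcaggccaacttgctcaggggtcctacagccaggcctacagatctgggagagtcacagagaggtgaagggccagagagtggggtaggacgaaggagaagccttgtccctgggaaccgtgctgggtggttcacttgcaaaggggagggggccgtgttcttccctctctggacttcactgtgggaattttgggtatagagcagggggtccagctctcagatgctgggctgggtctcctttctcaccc
Pick1 cluster first region: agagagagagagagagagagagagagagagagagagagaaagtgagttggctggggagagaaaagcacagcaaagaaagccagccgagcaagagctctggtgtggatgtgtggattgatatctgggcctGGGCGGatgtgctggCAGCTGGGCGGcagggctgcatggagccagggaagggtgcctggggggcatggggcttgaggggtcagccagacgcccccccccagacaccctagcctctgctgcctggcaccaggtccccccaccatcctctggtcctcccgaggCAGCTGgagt
The Tomm7 stretch, 125 bases of the gene past its TSS, held 1 GC box. The region upstream of Sox10 in the Pick1 cluster held 2 E-boxes and 2 GC boxes, of which 1 E-box and 1 GC box overlapped by 1 base. The other stretches held none of the motifs searched. Among the central 300 bp of all 8413 shared regions, a GC box was present in 3148 (37.4%) and this E-box in 1601 (18.2 to 19.9% by the exact interval). These windows are longer than the Padi2 and Tomm7 stretches.

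A microRNA gene lay in 12 of the clusters. Of 2202 microRNA genes 15 (0.681%) started inside a cluster, against 1.02% of protein-coding genes. Of these 15, 7 lay wholly within a shared region, and 10 had mature sequences in RefSeq. Mir219a-1 and Mir219c, which overlap on opposite strands, lay in the shared region chr17:34024327-34025187, which covers the TSS of Ring1, a Polycomb group subunit. miR-219a-5p is known to promote oligodendrocyte differentiation, and this locus was singled out after its values were seen. The 4 mature sequences are given from GRCm38.p6 with the seed, bases 2 to 8, in capitals, and no seed was shared between them.
miR-219a-5p: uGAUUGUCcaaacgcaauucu
miR-219a-1-3p: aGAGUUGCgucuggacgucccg
miR-219c-5p: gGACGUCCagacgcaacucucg
miR-219c-3p: cGAGAAUUgcguuuggacaauc
The region over both genes had a fold enrichment of 4.17 in proliferating and 4.43 in differentiating cells, the 91.1 and 96.5 percentile of the lists. The cluster of 3 regions also held the starts of Slc39a7, H2-Ke6, Rxrb and Col11a2.

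Most clusters were short rows of 3 regions. There were 118 clusters with 3 shared regions (77.6%, 70.2 to 84.0%), 27 with 4, 3 with 5, 3 with 6 and 1 with 9. The clusters ran from 7.28 to 55.6 kb with a median of 20.7 kb (quartiles 16.7 and 24.2 kb), and summed to 3213 kb. Shared regions covered 830 kb of this, and the share of a cluster under shared regions ran from 8.79 to 82.8% with a median of 24.5%. The median of the 352 gaps was 6285 bp, and 18 gaps were over 12 kb.

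**Figure D1:**
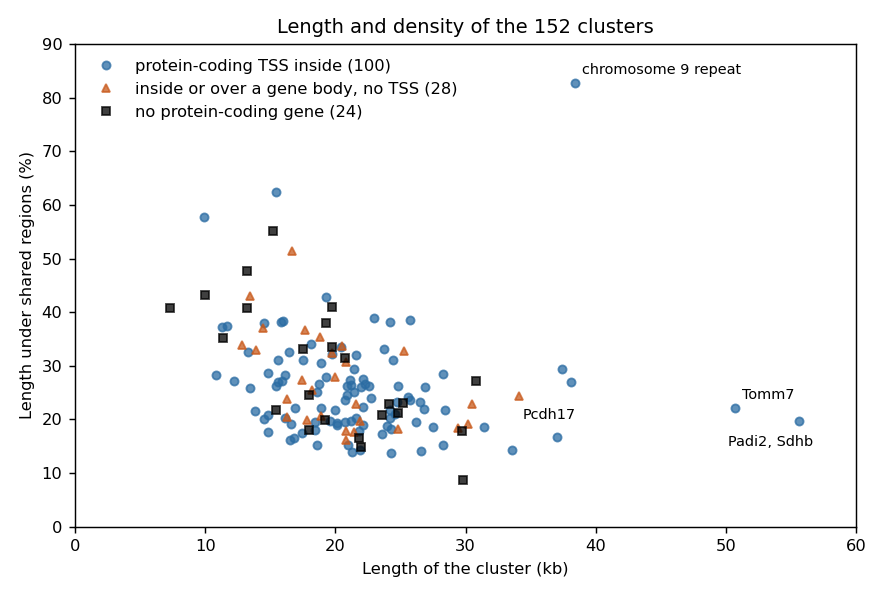
Length of each of the 152 clusters (x axis, kb) against the share of that length under shared regions (y axis, %), 1 point a cluster, by whether a protein-coding transcription start site (TSS) lay inside. Most points sit near the medians of 20.7 kb and 24.5%, and the repeat cluster of chromosome 9 stands apart at 38.4 kb and 82.8%.

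The longest cluster lay over Padi2, which encodes an enzyme turning peptidyl-arginine into citrulline, and reached the promoter of Sdhb, an iron-sulfur subunit of succinate dehydrogenase. It covered chr4:140906233-140961881, 55.6 kb, with 9 shared regions, 12 proliferating and 10 differentiating peaks. The 9 regions had fold enrichments of 2.40 to 9.13 in proliferating and 2.16 to 8.57 in differentiating cells, with the highest value at the Padi2 promoter in both. All 9 overlapped a coding exon. Proliferating peaks covered all 2019 coding bases of Padi2, 14.9% of its other exon bases and 17.9% of its 41230 intron bases. Differentiating peaks covered 93.3, 9.52 and 14.5% of the same bases. The peaks thus followed the coding exons and not the untranslated ones. Among 125 genes lying at least in part in a cluster, with at least 1000 coding and 5000 intron bases, the medians were 3.84% of coding and 4.53% of intron bases in proliferating cells, and 4.24 and 4.92% in differentiating cells. Padi2 had the highest coding share of the 125 in both lists. In other experiments of the study a Padi2 construct was introduced into this line, and its part in these peaks was not tested.

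The next clusters by number of regions were of different kinds. A 50.7 kb cluster on chromosome 5 (chr5:23814949-23865613) held 6 regions, of which 4 were intergenic and 1 lay at the promoter of Tomm7, a subunit of the translocase of the outer mitochondrial membrane. Its highest fold enrichments were 3.53 and 2.87, and its regions had a median fold percentile of 9.35 in proliferating and 6.41 in differentiating cells. A 34.1 kb cluster inside Pcdh17, a protocadherin of cell adhesion, had 6 regions and no other shared region within 500 kb on either side. Its highest values were 8.54 in proliferating and 9.34 in differentiating cells, at the 99.7 and 99.8 percentile, in intron regions of 511 and 533 bp. The antisense gene 9630013A20Rik (chr14:84458639-84476424) lies over part of the cluster, including the 511 bp region. The first region began 473 bp past the Pcdh17 start with a differentiating peak, so the TSS itself lay just outside. The outer Pcdh17 regions were wider, 3415 and 2367 bp, with at most 3.60 and 3.03. The width of the first came from merging. Its differentiating peak ran from 0 to 1.846 kb of the cluster and its proliferating peak from 1.745 to 3.415 kb. The Pcdh17 cluster thus joined narrow intron regions with high values to end regions with lower ones. The Tomm7 cluster lay among 28 other shared regions within 500 kb.

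Other leading clusters held a TSS. On chromosome 11 a cluster of 38.1 kb (chr11:78152104-78190204) held 5 regions and the starts of Traf4, a signalling adaptor, Nek8, a ciliary kinase, Tlcd1, Rpl23a, a ribosomal protein, and Rab34, a small GTPase, with fold enrichments up to 3.57 and 3.41. A cluster of 33.6 kb on chromosome 17 held 4 regions over Slc35b2 and Hsp90ab1, a cytosolic chaperone, with values up to 5.05 and 5.27. The cluster of 31.4 kb at Afap1l2 on chromosome 19, with 4 regions over that gene, reached 4.16 and 3.71. No gene with its start in these 3 clusters was in a lineage factor, precursor or myelin list.

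Some of the leading clusters held no TSS. Myt1 encodes a zinc finger transcription factor of the oligodendrocyte lineage and of neurons. The cluster inside it (chr2:181766674-181797157) spanned 30.5 kb with 4 regions from 3342 to 31252 bp past the gene start, and reached 4.18 and 3.23. A 30.2 kb cluster at Socs3, an inhibitor of JAK-STAT signalling, began its nearest region 236 bp from the TSS and reached 4.21 and 3.55. The cluster near Gm10354 on chromosome 5 had 4 regions in 30.8 kb, and all 4 had a near-identical copy elsewhere in the genome.

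**Figure D2:**
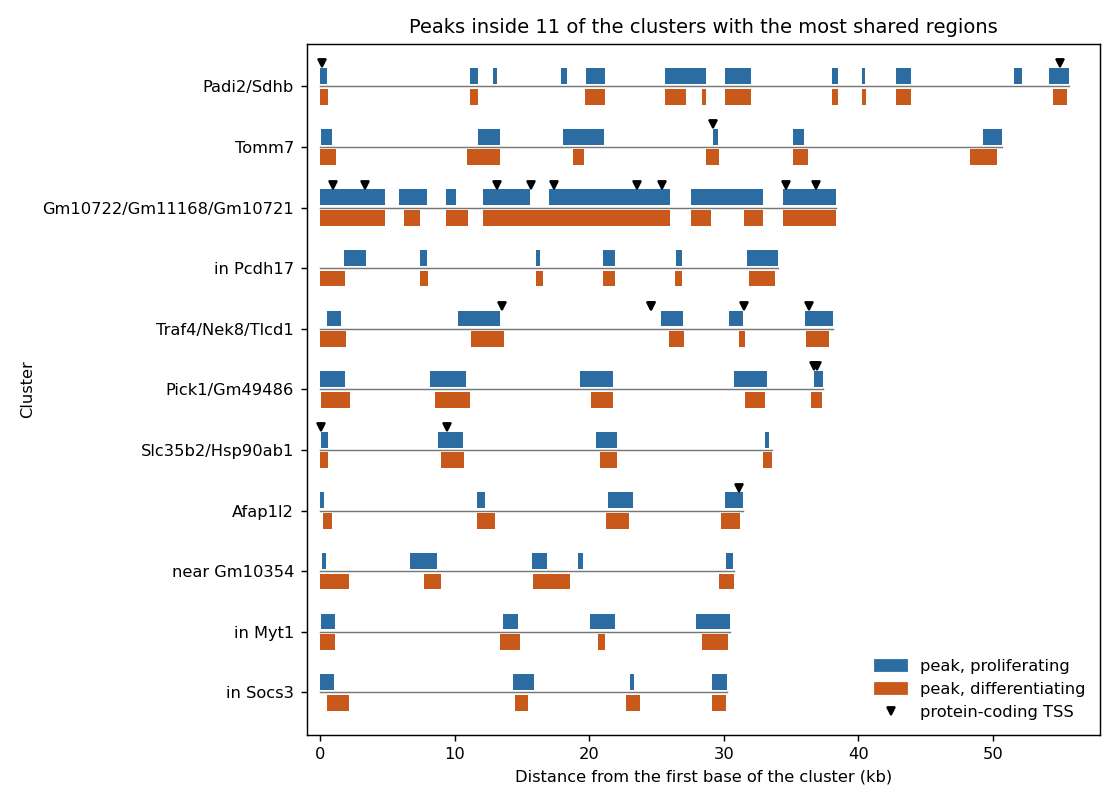
Peaks of the proliferating list (blue, above the line) and of the differentiating list (orange, below) in 11 of the 12 clusters with the most shared regions, against the distance from the first base of the cluster (x axis, kb), with triangles at protein-coding TSS. The Padi2 and Sdhb cluster holds 12 and 10 peaks over 55.6 kb. By the rule every shared region holds a peak of each list.

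A protein-coding TSS lay inside 100 of the 152 clusters (65.8%, 57.7 to 73.3%). There were 35 clusters with 1 TSS, 33 with 2 and 32 with 3 or more, up to 9. A further 28 clusters lay in or across a gene body without a start, and 24 held no protein-coding gene. In the 52 clusters without a TSS the nearest start was a median of 19 kb away, from 0.140 to 881 kb, and lay within 50 kb for 39 of them. Pairs of shared regions held a TSS in 56.8% (52.7 to 60.7%).

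Of 21951 protein-coding genes 224 (1.02%) had their TSS inside a cluster and 578 (2.63%) within 50 kb of one. A shared region lay in the promoter (3000 bp before the TSS and 100 bp after it) for 202 of the 224 genes (90.2%), and for 4486 of all genes (20.4%). Being inside a cluster brings a gene near shared regions by construction, so nothing is read from that difference. TSS density was 69.7 per Mb in clusters, 88.7 in pairs and 8.05 in the genome. By promoter content, 54 clusters had no promoter region, 37 had 1, 39 had 2, 18 had 3, 3 had 4 and 1 had 5, and in 18 clusters every region overlapped a promoter.

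Over 9 lists with 172 genes, of the lineage, its signalling, the cell cycle, lipid synthesis and the cytoskeleton, 3 had their TSS in a cluster (Sox10, Cd9 and Padi2), against 1.02% of all genes, and 7 lay within 50 kb, against 2.63%. Of the lists themselves, lineage transcription factors had 1 of 30 genes inside, cytoskeleton and adhesion genes 1 of 20 and Padi genes 1 of 5. Precursor genes (20), myelin and mature oligodendrocyte genes (22), ErbB, FGF and PDGF signalling (24), immediate early genes (20), cell cycle genes (15) and cholesterol synthesis genes (16) had 0.

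Many of these genes had a shared region at the promoter without lying in a cluster. A shared region lay in the promoter of 12 of 30 lineage factors, among them Olig1, Olig2, Sox10, Myrf and Sox6, of 8 of 20 precursor genes, among them Ptprz1, Gpr17 and Bcan, and of 12 of 16 cholesterol genes, among them Hmgcs1 and Sqle. It lay in the promoter of 4 of 22 myelin genes, against 20.4% of all genes. Of the markers of other cell types, 0 of 10 neuronal, 0 of 10 microglial and 0 of 8 endothelial genes had a shared promoter region, while 3 of 10 astrocyte genes, 1 of 8 fibroblast genes and 1 of 8 Schwann cell genes, Sox10 itself, had one. The other lists had 12 of 20 cytoskeleton and adhesion genes, 10 of 20 immediate early genes, 11 of 24 genes of ErbB, FGF and PDGF signalling, 6 of 15 cell cycle genes and 1 of 5 Padi genes, so shares above that of all genes were not particular to the lineage lists.

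Sox10, a transcription factor required for oligodendrocyte differentiation, lay in a cluster of 24.8 kb (chr15:79151382-79176151) with 3 regions. The region over its promoter, 3654 bp wide, had a fold enrichment of 2.47 and 2.23, the 1.85 and 0.901 percentile of the lists. The regions at its far ends had 3.17 and 2.93 past the 3′ side of the gene, and 3.09 and 2.88 at 10188 bp upstream of its TSS. Of the 3 regions, 1 lay over 2 of the 5 coding exons of Polr2f, a neighbouring gene, and the upstream region was intergenic. The Sox10 promoter was thus wide and of low fold enrichment, and MACS2 gives that value as an average over a broad peak.

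The closest pair of clusters in the genome was that of Sox10 and Pick1, 16.3 kb apart. The Pick1 cluster, named for a PDZ protein that binds glutamate receptor subunits, spanned 37.4 kb (chr15:79192435-79229828) with 5 regions. By protein-coding genes 4 were intergenic and 1 lay at the Pick1 promoter. The noncoding gene Gm10863 (chr15:79166041-79227524) spans these 4 regions and the last region of the Sox10 cluster. Its first region, 27195 bp upstream of the Sox10 TSS, had 3.47 and 3.39. The third had 3.09 in proliferating and 3.52 in differentiating cells, and the promoter region had 4.05 and 2.79. The row of regions around Sox10 thus ran on for both clusters, and 26 other shared regions lay within 500 kb of the Sox10 cluster.

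Cd9, a tetraspanin found on oligodendrocyte lineage cells, lay in a 28.3 kb cluster (chr6:125466543-125494815). Its promoter region had 4.23 and 3.12, and its intron regions, 12749 and 25943 bp from the TSS, had 4.59 and 3.74, and 3.39 and 3.53. All 3 regions ranked above the median of both lists except the promoter region in differentiating cells, at the 49.0 percentile. The other list genes with a TSS within 50 kb of a cluster were C1ql1, Nr4a1, Ahnak and Cspg5. C1ql1, a secreted C1q-like protein of precursors, had its TSS 17 bp beyond the end of the Kif18b cluster. The C1ql1 body ran back into that cluster, with 1 of its 2 coding exons under a shared region. Nr4a1, an early-response nuclear receptor, had its body in the Atg101 cluster, 12654 bp past its TSS. Ahnak lay at 21057 bp and Cspg5 at 37283 bp. By gene body, a cluster also lay inside Nfib, a lineage factor, 192278 bp from its TSS, and another inside Lhfpl3, a precursor gene. Among the markers of other cell types, the astrocyte gene Gfap had its TSS 23117 bp from the Kif18b cluster.

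The regions in clusters were wide, of modest fold enrichment and more often away from promoters. Their median length was 1496 bp, against 1307 bp for the 7909 shared regions outside. Their median fold enrichment was 3.26 in proliferating and 3.12 in differentiating cells, against 3.53 and 3.35 outside. As percentiles of the lists these were 42.4 and 48.7, against 67.2 and 69.2. The −log10 q values did not show the same order, with median percentiles of 78.4 and 80.4 in clusters and 76.0 and 77.1 outside. Cluster regions were in the upper 10% of both lists in 7.34% (5.22 to 9.98%), against 10.2% (9.54 to 10.9%) outside. Regions of the same library are not replicates, and no test was run between the sets.

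**Figure D3:**
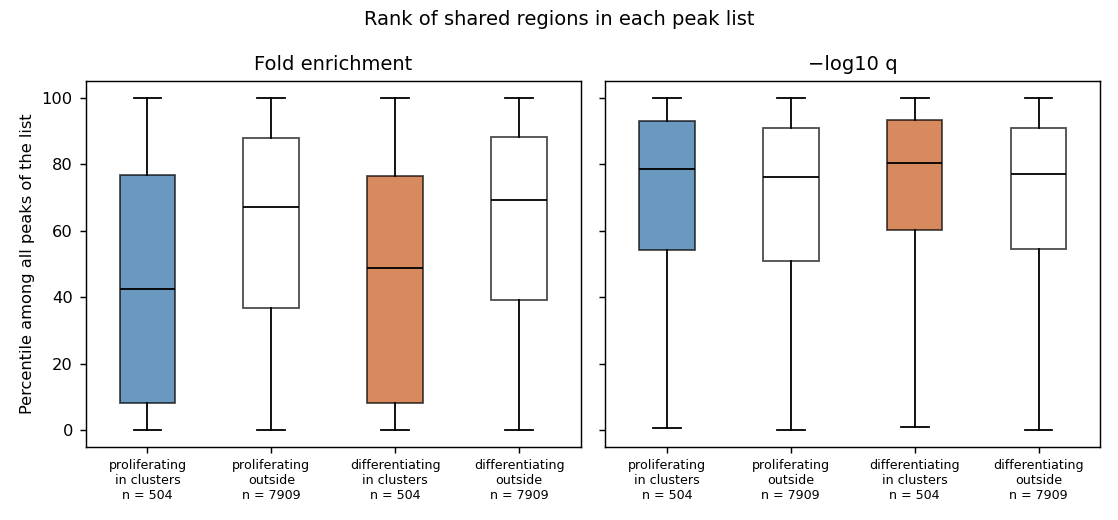
Percentile among all peaks of the list (y axis) of the fold enrichment (left) and −log10 q (right) of the shared regions in clusters (filled, n = 504) and outside (open, n = 7909). Lines are medians, boxes quartiles and whiskers the lowest and highest values, and the fold percentiles of cluster regions have lower medians, 42.4 and 48.7, than those outside.

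By annotation 36.9% of cluster regions (32.7 to 41.3%) overlapped a promoter, against 45.9% outside (44.8 to 47.0%), and 29.4% (25.4 to 33.6%) were intergenic, against 23.4% (22.5 to 24.4%). Exons without a promoter made up 16.9 and 14.3%, and introns 16.9 and 16.4%. The ratio of observed to predicted CpG had a median of 0.318 in clusters and 0.538 outside, and was at least 0.6 in 30.0% (26 to 34.2%) and 46.1% (45.0 to 47.2%). A GC box was found in 28.2% of the central windows in clusters (24.3 to 32.3%) and 38.0% outside (36.9 to 39.1%).

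Pairs lay between for some measures and beside the clusters for others. They overlapped a promoter in 37.4% (34.7 to 40.2%), had a GC box in 31.2% (28.7 to 33.9%), and had fold percentiles of 56.4 and 60.5. The form ACAAAG, a match to SOX factors, was in 22.4% of cluster windows (18.9 to 26.3%) and 20.4% outside (19.5 to 21.3%), with overlapping intervals. ACAATG was in 11.1% of both, the E-box in 21.8 and 18.9%, AP-1 in 6.35 and 6.46%, ETS in 7.54 and 7.51% and CRE in 1.39 and 1.15%. Intervals of these 5 motifs overlapped as well.

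The clusters held nearly the same amount of both lists. Inside lay 520 proliferating peaks (1.80% of 28924) covering 666 kb, and 525 differentiating peaks (1.88% of 27965) covering 661 kb. The median length under peaks in a cluster was 4.02 and 4.01 kb, the longer of the pair being proliferating in 75 clusters and differentiating in 77. The highest fold enrichment in a cluster had a median of 3.79 and 3.54. Since membership needed peaks of both lists, a cluster lost from either state could not appear here, and similar peak counts follow largely from the rule.

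**Figure D4:**
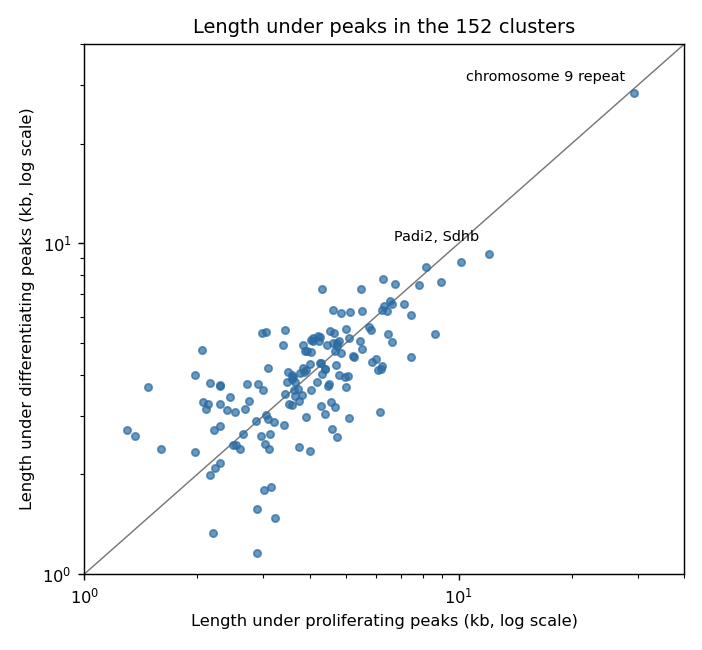
Length under proliferating (x axis) and differentiating peaks (y axis) in each of the 152 clusters, in kb on log axes, with the line of equal length. The points scatter on both sides of the line, 75 below and 77 above it, and the Padi2 and chromosome 9 repeat clusters are among the longest in both.

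Regions found in a single list can fall only in the gaps of a cluster, 2383 kb in all. There were 15 proliferating ones in 12 clusters and 15 differentiating ones in 14, and 130 clusters had none. That is 6.29 of either kind per Mb of gap, near the 7.51 proliferating and 7.17 differentiating ones per Mb of the genome. Equal numbers of peaks were found in 130 clusters, more proliferating peaks in 8 and more differentiating peaks in 14, never by more than 2. In 147 clusters every shared region held 1 peak of each list. The rule gives each shared region a peak of both lists, so equal numbers are largely set by it and nothing is read from them. The largest excess in proliferating cells was in the Padi2 cluster with 12 against 10 and at Ppib, a peptidyl-prolyl isomerase of the endoplasmic reticulum, and Snx22, a sorting nexin, with 5 against 3. By length the next were the cluster near Gm10354 and that of Cd82, a tetraspanin. In differentiating cells the largest excess was at Sfi1, a centrosome protein, with 5 against 3, then by length in the cluster 881 kb from Rab28 and those of Naglu, a lysosomal enzyme, Ckb, a brain creatine kinase, and Pim3, a kinase. With 1 library a state these differences of 1 or 2 peaks have no error.

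The rank of a cluster region in the differentiating list followed that in the proliferating list with a Spearman coefficient of 0.687 over 504 regions, and 0.487 over the 7909 regions outside. Length under peaks in the clusters gave 0.712 over 152 clusters. These coefficients describe regions of the same 2 libraries. Of the cluster regions 268 ranked higher in differentiating cells (53.2%, 48.7 to 57.6%), against 51.4% outside (50.3 to 52.5%).

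Chromosomes 11 and 5 held the most clusters. On chromosome 11 lay 25 (16.4%, 10.9 to 23.3%), against 8.59% of shared regions and 4.48% of sequence. On chromosome 5 lay 21 (13.8%, 8.76 to 20.3%), against 8.06 and 5.57%. Both intervals lay above the share of shared regions. On chromosome 5 this rested in part on clusters with a near-identical copy elsewhere: without them 16 of 135 remained (11.9%, 6.93 to 18.5%), an interval that holds 8.06%. With either list joined alone by the same rule, chromosome 11 held 7.60% of the proliferating and 8.77% of the differentiating clusters, so its share depends on the use of shared regions. Chromosome 5 held 16.8 and 13.8% of the same clusters. Chromosome 10 held 14, chromosome 1 held 13 and chromosomes 15 and 17 held 11 each.

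**Figure D5:**
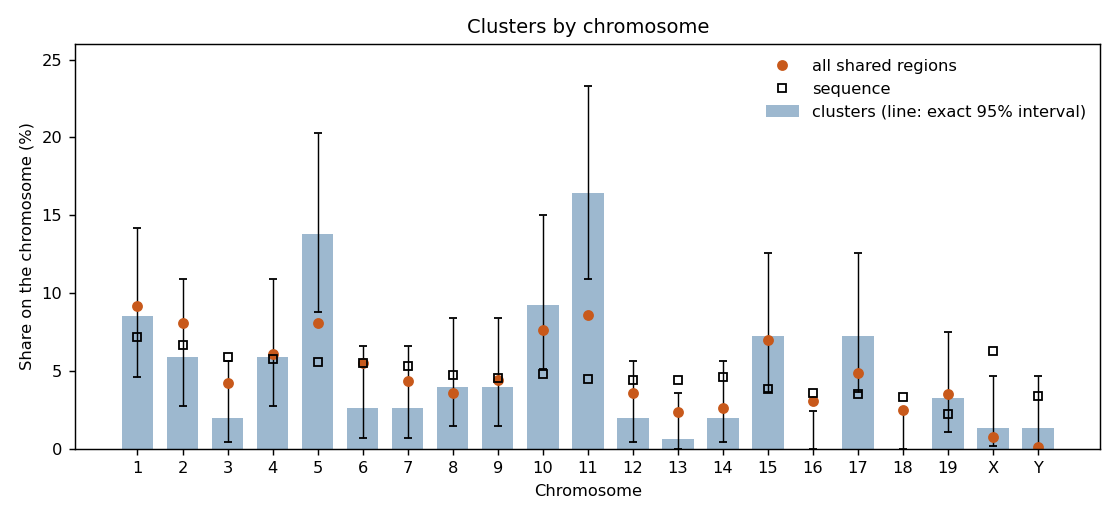
Share of the 152 clusters on each chromosome (bars, %, with exact 95% intervals as lines), of all 8413 shared regions (filled circles) and of the sequence (open squares). Chromosomes 5 and 11 have intervals above their share of shared regions, for chromosome 5 only with the clusters that hold a copy, and chromosomes 16 and 18 have no cluster.

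Chromosomes 1, 10 and 15 together held 38 clusters (25%, 18.3 to 32.7%), near their 23.8% of shared regions. Chromosomes 16 and 18 held 0 of 152, which allows up to 2.40% each by the exact interval, against 3.04 and 2.46% of shared regions. Over chromosomes 1 to 19 the clusters per 100 Mb had a Spearman coefficient of 0.892 with shared regions per Mb and 0.624 with genes per Mb, as a description of 19 chromosomes. The chromosomes dense in shared regions thus held the most clusters, which the joining rule favours.

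Within chromosomes many clusters lay in bins dense in shared regions. Of 286 bins of 10 Mb, 84 held a cluster, and 18 bins with 3 or more held 66 clusters. The fullest was on chromosome 5 from 20 to 30 Mb, with 6 clusters, 100 shared regions and 83 genes. The next bin of chromosome 5 and chromosome 15 from 80 to 90 Mb followed with 5 each. In the 6 clusters the median fold percentile of the regions ran from 4.96 to 27.4 in proliferating and 3.69 to 68.9 in differentiating cells. In the next bin of chromosome 5 it ran from 0.0795 to 9.99 and from 0.154 to 36.8. Over all cluster regions the medians were 42.4 and 48.7. The median bin held 24.0 shared regions, against 51 to 128 in each of the 18 bins. The joining rule favours dense bins, so nothing is read from this grouping. Around each cluster region a median of 12 other shared regions lay within 500 kb, against 6.00 outside, a count that includes its own cluster. Among neighbouring clusters 10 pairs lay within 100 kb, a count with no comparison beside it. Among them were Rbck1 and Trib3 beside Sox12, Gpx4 beside Cirbp and the clusters near Wnt7b and Ppara.

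Leading clusters of the fullest chromosomes were those of Tomm7 and of Traf4, given above, and that of Mex3d, Mbd3 and Uqcr11 on chromosome 10, with 4 regions over 28.4 kb and values up to 5.05 and 3.73. Mbd3 is a subunit of the NuRD complex. The densest clusters were the repeat cluster of chromosome 9 at 82.8%, Sfi1 at 62.5%, Kdm6b, a demethylase of H3K27, at 57.7%, the cluster near Wnt7b at 55.1% and that in Zcchc24 at 51.4%. Their highest fold enrichments, 1.76 to 3.14 in differentiating and 1.79 to 3.04 in proliferating cells, were below the cluster medians of 3.54 and 3.79.

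Repeats and near-identical copies touched a small number of clusters. A region with another copy of at least 90% identity over at least 50% of its length was in 17 clusters, in 8 of them every region, and in 5 clusters at least 50% of the bases were repeat. The copies made up 8.73% of cluster regions (6.41 to 11.5%) and 2.62% outside (2.28 to 2.99%). The cluster at the start of chromosome 9 (chr9:2999988-3038360) was 96.1% repeat and held the starts of 9 predicted genes from Gm10722 to Gm10715. Its fold enrichments were at most 1.79 and 1.76, at or below the 0.0429 percentile. Its −log10 q values were high, up to 54.4 in proliferating and 58.3 in differentiating cells, beside 67.3 and 52.4 in the Padi2 cluster. Reads of such copies cannot be told apart by uniquely placed alignments, so these clusters are uncertain. Without clusters holding a copy, 135 remained, of which 69.6% (61.1 to 77.2%) held a TSS, against 6 of the 17 with a copy. Neither the Padi2 nor the Pcdh17, Sox10, Pick1 or Cd9 cluster held a copy.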

How the data were processed

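H3K27ac ChIP-seq of Oli-neu cells was analysed from peak lists, 1 library a state. The authors mapped reads to GRCm38/mm10 with Bowtie2 2.1.0, removed duplicates with SAMtools, called broad peaks with MACS2 2.0.10 and removed blacklisted regions with bedtools. Whether an input library was used is not given in the sources used here. The deposited lists have no header and give, after each position, a fold enrichment (a ratio), a −log10 p value and a −log10 q value, whose meaning was read from their order and range. The lists name no read counts, so depth is unknown.

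Peaks were merged where they overlapped or touched, and joined as given in the text, in Python 3.11.15 with SciPy 1.17.1. The joining was tested on simulated peaks and gave the same regions as bedtools 2.31.1. Genes were the 21951 protein-coding genes of GENCODE M21. A region was assigned to a promoter (3000 bp upstream to 100 bp downstream of a TSS), then an exon, an intron or intergenic DNA. Only protein-coding genes were used for this, so a noncoding gene can lie over an intergenic region. Percentiles are ranks among all peaks of a list. Copies were searched with minimap2 2.31. Shares have exact (Clopper-Pearson) intervals. No test was run, because each state had 1 library.

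Clusters named were the 12 with the most shared regions, the 5 longest, the 5 densest, the 5 with the largest excess of peaks of each list, the leading one on each of the 3 fullest chromosomes, and those near list genes. A few clusters and genes that the rule covers are not reported here. Others are marked as chosen after their values were seen. Sequences came from the first 6 clusters by number of regions that were not mainly repeat, and stretches with under 100 bases outside untranslated regions were not printed. MicroRNA sequences are from RefSeq. The clusters and lists were chosen with earlier results of these data known. Alternatives covered the gap, the least number of regions, the q value, the overlap, promoters, repeats, chromosomes, the definition of a TSS, equal numbers of peaks and each list alone.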

Additional observations from a re-analysis of the deposited data

How the results depend on the processing

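Of 101 values under an alternative, 59 stayed within 1.5 times the reported count or inside its interval and 42 did not. Those with q of at most 0.05, repeat share under 0.5, chromosomes 1 to 19 or equal numbers of peaks all stayed.

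The number of clusters was set by the joining rule. With a largest gap of 5 kb there were 16 clusters of median 13.0 kb with 0.630% of shared regions, 25% of them on chromosome 11, 31.2% with a TSS and 14 genes. With 25 kb there were 362 clusters of median 35.8 kb with 16.1% of shared regions, 76.0% with a TSS and 803 genes. At least 4 regions left 34 clusters, 1.78% of regions and 60 genes, and at least 2 gave 765 of median 11.4 kb, 20.6% and 784 genes. Requiring peaks to overlap by at least 0.5 of each left 47 clusters, 3.24% of regions, 10.6% on chromosome 11, 76.6% with a TSS and 84 genes. Without promoter regions 66 clusters held 4.70% of regions, and 7.58% of them a TSS, of 6 genes in all, as fewer regions lie at a TSS by construction.

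The proliferating list alone gave 1289 clusters with 16.2% of its regions, 7.60% on chromosome 11, 42.0% with a TSS and 916 genes, and the differentiating list alone 1300, 16.6%, 8.77%, 42.6% and 996. The TSS of every transcript raised the share with a TSS to 75.7%, and genes of every biotype to 80.3%. Alternatives chosen after seeing the data left out regions with a near-identical copy, which gave 5.48% of regions in clusters and 136 clusters, or the Padi2, Pcdh17 and chromosome 9 repeat clusters, which moved no value past its limit. For chromosome 5, also tried after seeing the data, the share moved to 0 of 16 clusters with the gap of 5 kb and to 8.51% with the overlap rule. Under the other alternatives it stayed inside its interval, with 16.8% for the proliferating list alone, 13.8% for the differentiating list alone and 18.2% without promoter regions. For the other changes the cause was not tested.

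No paired analysis was possible because each state had 1 library, and the siRNA samples that share replicate numbers were not analysed here. With 1 library a state no value has a replicate error, and unknown depth limits any reading of a peak missing from a list.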

Other observations

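A few clusters outside the naming rule were singled out after their values were seen, and are given as single examples. Of the genes named with them, Lhfpl3 is in the precursor list and Sox9 in the lineage factor list, both with their TSS outside the clusters. A cluster of 21.4 kb on chromosome 10 held the starts of Fabp7, a fatty acid binding protein of neural progenitors and glia, and Smpdl3a, with fold enrichments up to 3.40 in proliferating and 3.30 in differentiating cells. The 3 regions of a 17.7 kb cluster on chromosome 1 lay within Kcnj10, a glial potassium channel, and reached 3.21 and 3.08. A cluster of 20.7 kb on chromosome 11 held the starts of Pes1, 4930556J24Rik and Gal3st1, the sulfotransferase that makes the myelin lipid sulfatide, with values up to 3.75 and 3.78. A cluster inside Lhfpl3, a gene of oligodendrocyte precursors, reached 2.89 and 3.23, with 28 other shared regions within 500 kb.

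Far from genes, the 18 kb cluster on chromosome 11 whose nearest start was that of Sox9, 401533 bp away, reached 3.81 and 3.54 in 3 intergenic regions. In some clusters the regions differed in strength. The cluster across an end of Lars2, a mitochondrial leucyl-tRNA synthetase, had 8.48 and 8.16 in its first region and at most 3.31 and 3.43 in the others. The intergenic cluster nearest to Mreg had 6.33 and 6.57 in its strongest region and 3.57 to 3.80 and 3.05 to 4.24 in the others. It had a near-identical copy elsewhere for 2 of its 4 regions, and covered the smallest share of its length of all clusters, 8.79%.

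Starts of noncoding genes in clusters included 21 of 5854 lincRNA genes (0.359%) and 21 of 2959 antisense genes (0.710%), shares below the 1.02% of protein-coding genes. Reads of an antisense gene and its partner lie on the same DNA, so a peak there cannot be assigned to either. Mir191 and Mir425 lay in the cluster of Ndufaf3, Dalrd3 and Wdr6, outside its shared regions.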
